A study of Mus musculus with 4 samples.

Results

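The stathmin genes *Stmn1* to *Stmn4*, the class I histone deacetylase genes *Hdac1*, *Hdac2* and *Hdac3* and the elongation factor genes *Tcea1* and *Tcea3* were followed through single cells of mouse embryos that were either wild-type (WT) or *Grhl3*-null. They are 9 of the 31055 genes in the files. *Stmn1*, *Hdac1* and *Tcea3* had been picked because their RNA was lower in the *Grhl3*-null cells, so their falls are given below as a description, with no test. The other 6 are paralogues of these genes. The questions were whether the fall of the 3 picked genes was even over cell types, and whether any paralogue was higher where they were lower. *Hdac8* and *Tcea2*, the remaining genes of the class I and Tcea families, are shown beside them.

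The samples were 2 WT and 2 *Grhl3*-null libraries, made from the caudal portion of embryos taken at E8.5 from intercrosses of *Grhl3*+/- mice. The cells of 5 WT and of 3 *Grhl3*-null embryos were each combined in a single pool, and 2 droplet reactions were run per pool with a 3′ kit of 10X Genomics. All cells of the null embryos carry the constitutive null allele, whether or not they would express *Grhl3*. Each p-value below compares 2 pools, and the spread between libraries of a genotype holds no spread between embryos.

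Stathmins bind tubulin dimers and promote the disassembly of microtubules. *Stmn1* is the broadly expressed member of proliferating cells, whereas *Stmn2*, *Stmn3* and *Stmn4* are best known from neurons. Class I histone deacetylases remove acetyl groups from histone tails. HDAC1 and HDAC2 are close relatives that share the Sin3, NuRD and CoREST co-repressor complexes, and HDAC3 is the catalytic subunit of the NCoR complex. The Tcea genes encode TFIIS proteins, which restart RNA polymerase II after it has stalled and backtracked. *Tcea1* is the ubiquitous form, and *Tcea2* and *Tcea3* are expressed in fewer tissues.

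Because the paralogues descend from common ancestors, the coding stretches in which they are most alike are shown first. The kit counts 3′ ends of transcripts, so these windows do not show how far reads of one could be taken for another. Each is a window of 60 bases within 1 coding exon, read from GENCODE transcripts of GRCm38 (mm10), 5′ to 3′, and capitals mark the positions at which the genes shown differ. In the stathmins 41 of the 60 bases were common to all 4 genes. The windows lie at chr4:134472858-134472917 (plus strand, *Stmn1*), chr3:8554846-8554905 (plus strand, *Stmn2*), chr2:181307294-181307353 (minus strand, *Stmn3*) and chr14:66357900-66357959 (plus strand, *Stmn4*).
Stmn1: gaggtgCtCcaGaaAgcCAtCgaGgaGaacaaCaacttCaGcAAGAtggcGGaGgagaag
Stmn2: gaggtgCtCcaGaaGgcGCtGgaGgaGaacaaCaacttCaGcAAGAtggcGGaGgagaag
Stmn3: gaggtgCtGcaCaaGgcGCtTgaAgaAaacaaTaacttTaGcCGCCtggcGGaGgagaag
Stmn4: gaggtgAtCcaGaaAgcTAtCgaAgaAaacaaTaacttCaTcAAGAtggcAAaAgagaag

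*Stmn2* differed from *Stmn1* at 4 of these 60 bases, *Stmn4* at 9 and *Stmn3* at 14. Over the aligned coding sequence *Stmn1* and *Stmn2* shared 73.6% of bases, and the longest run of bases common to any of their transcripts was 43. For *Hdac1* (chr4:129519086-129519145, minus strand) and *Hdac2* (chr10:36993791-36993850, plus strand) the most alike window had 52 bases in common.
Hdac1: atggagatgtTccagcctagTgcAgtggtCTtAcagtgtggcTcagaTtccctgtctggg
Hdac2: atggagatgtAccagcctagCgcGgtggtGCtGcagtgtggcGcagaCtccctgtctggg

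For *Tcea1* (chr1:4894946-4895005, plus strand) and *Tcea3* (chr4:136273656-136273715, plus strand) it had 51.
Tcea1: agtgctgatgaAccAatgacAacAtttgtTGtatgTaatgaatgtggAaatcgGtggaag
Tcea3: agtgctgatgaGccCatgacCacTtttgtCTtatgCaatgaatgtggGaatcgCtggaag

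*Hdac1* and *Hdac2* shared 75.9% of their aligned coding bases and a longest run of 17 bases, and *Tcea1* and *Tcea3* shared 66.6% and a longest run of 12 bases. The length of the reads is not given in the sources used here, so a count of reads that fit 2 members was not made. In the annotation, *Tcea1* overlaps *Gm37988* on the same strand, which held 80 UMIs in all 4 libraries.

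After filtering, 20198 of 24239 cells were kept, 5459 and 5116 from WT and 4842 and 4781 from null, with medians of 33391 to 38070 UMIs (unique molecular identifiers, 1 per captured transcript) per cell and 209833527 to 226723903 UMIs per library. Between 88.2% and 89.8% of WT cells but 77.4% to 78.4% of null cells passed the filters. Of cells whose sex could be called, 26.5% and 27.0% were male in WT and 55.6% and 57.5% in null. Any pair of libraries shared 7 to 16 cell barcodes. Clustering gave 15 classes, of which 14 took a name by likeness to the study's own markers and cluster 10 stayed unnamed, with a median of 16220 UMIs. Names of classes below are to be read in that sense, as rebuilt from markers. Clusters 2 and 11, of 2224 and 423 cells, both took the name mesenchyme 1 and were summed as a single class. The pre-somitic class held 9.20% and 9.62% of WT cells but 0.0826% and 0.0627% of null cells. The 12 classes with at least 50 cells in every library entered the tests within and over classes, and pre-somitic mesoderm, notochord and primordial germ cells did not. *Stmn1*, *Stmn2*, *Stmn4*, *Hdac1* and *Tcea3* were among the variable features that built the clusters, and *Stmn2* is itself a marker of 2 of the types.

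*Grhl3*, the disrupted gene, was counted 878 and 803 times in WT and 12 and 14 times in null, without overlap. In WT its level was highest in cells of the surface ectoderm or neural plate border class, at 30.1 per 1000000 UMIs of the class (counts per 1000000 UMIs, or CPM).

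*Stmn1* stood at 1026 and 1065 CPM over all filtered WT cells and at 326 and 388 CPM over all null cells. *Hdac1* stood at 156 and 153 CPM in WT and at 67.9 and 67.0 CPM in null. *Tcea3* stood at 25.1 and 25.7 CPM in WT and at 9.77 and 10.4 CPM in null. In each case both null libraries lay below both WT libraries, and the null libraries differed most from each other in *Stmn1*. With 2 libraries per genotype such a separation can easily arise by chance. The share of all genes without overlap is not given, here or below, so a lack of overlap only describes the values. The mean null level was 34.2% of the mean WT level for *Stmn1*, 43.7% for *Hdac1* and 39.7% for *Tcea3*. As log2 fold changes, null over WT, these are -1.58 (SE 0.066) for *Stmn1*, -1.23 (SE 0.024) for *Hdac1* and -1.36 (SE 0.032) for *Tcea3*. The share of all 17168 genes tested that were called and differed by 1 or more on the log2 scale was 2.21%, which is given for scale only, since the 3 genes were picked on this contrast. Per cell, *Stmn1* averaged 42.6 and 45.9 UMIs in WT cells and 15.2 and 17.0 in null, and *Hdac1* averaged 6.49 and 6.59 UMIs in WT and 3.17 and 2.94 in null. Fewer cells of an expressing type and less RNA per cell both lower such totals over all cells, and the values within classes below take the first apart from the second only as far as the classes are uniform.

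**Figure D1:**
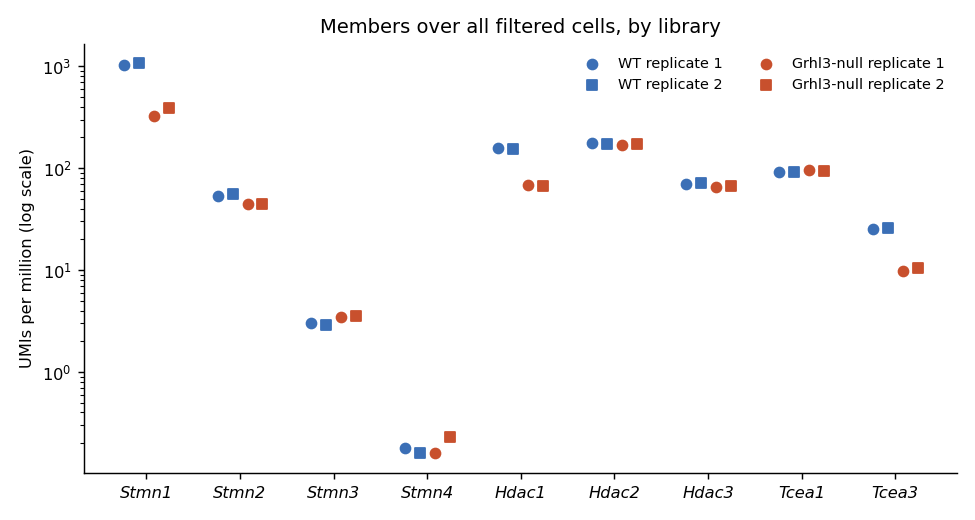
CPM over all filtered cells (y axis, log scale) for the 9 genes (x axis), with 1 point per library, WT in blue and *Grhl3*-null in orange-red. *Stmn1*, *Hdac1* and *Tcea3* are lower in both null libraries, at 34.2%, 43.7% and 39.7% of the WT mean, while the points of the 6 paralogues lie close together.

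None of the paralogues was higher in the null cells by an amount close to these falls. *Hdac2*, the partner of HDAC1 in its complexes, was at 175 and 174 CPM in WT and at 169 and 171 CPM in null, a log2 fold change of -0.067 (SE 0.021, adjusted p = 0.040, edgeR quasi-likelihood test). *Hdac3* was at 70.0 and 71.1 CPM in WT and at 65.5 and 67.2 CPM in null (log2 fold change -0.12, SE 0.020, edgeR adjusted p = 0.0040). Both were slightly lower, with no overlap between the genotypes, which is a description only. *Hdac8* was at 5.27 and 5.16 CPM in WT and at 5.27 and 5.34 CPM in null and did not pass the test (log2 fold change -0.0053, SE 0.043, edgeR adjusted p = 0.94).

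*Stmn2* fell from 53.7 and 56.2 CPM in WT to 44.9 and 44.6 CPM in null, a log2 fold change of -0.33 (SE 0.025, edgeR adjusted p = 0.00010). *Stmn3* rose from 2.99 and 2.87 CPM to 3.49 and 3.51 CPM, with a log2 fold change of 0.22 (SE 0.058, edgeR adjusted p = 0.020). It was the only paralogue called higher over all cells. *Stmn4* was barely detected, with 41 and 35 UMIs in WT and 36 and 48 in null, and did not pass the test (edgeR adjusted p = 0.66).

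*Tcea1* was at 92.3 and 91.6 CPM in WT and at 95.9 and 93.2 CPM in null, a log2 fold change of 0.010 (SE 0.025) that did not pass the test (edgeR adjusted p = 0.79). Its null values were the 2 higher ones of the 4, by a few CPM. *Tcea2* was at 1.46 and 1.38 CPM in WT and at 1.58 and 1.47 CPM in null and did not pass either (log2 fold change 0.076, SE 0.088, edgeR adjusted p = 0.54).

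Of the 6 paralogues, 1 was thus called higher and 3 lower at an adjusted p under 0.05. Over all 17168 genes tested 35.5% were called, 17.1% higher and 18.5% lower, so that small shifts were common in these libraries. None of the 4 calls stood under all settings tried. *Stmn2* lost its call in female cells alone (edgeR adjusted p = 0.21) and *Hdac3* in male cells alone (edgeR adjusted p = 0.32). *Stmn3* lost its call with DESeq2 (adjusted p = 0.11), without WT replicate 2 (edgeR adjusted p = 0.093), after thinning each cell to 7500 UMIs (edgeR adjusted p = 0.30) and with the pre-somitic class left out (edgeR adjusted p = 0.079), and its direction turned in female cells. *Hdac2* lost its call with DESeq2 (adjusted p = 0.058) and without any 1 of the 4 libraries (edgeR adjusted p from 0.080 to 0.18). It also lost its call when scaled by total UMIs only, at a mitochondrial limit of 5%, after thinning and with the pre-somitic class left out (edgeR adjusted p = 0.26, 0.11, 0.24 and 0.094), and its direction turned in male cells.

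The genes of each family were also summed, with the picked gene included. Because that gene was chosen for its fall, the direction of each total was largely set by the choice. The 4 stathmins together had 1083 and 1124 CPM in WT and 375 and 436 CPM in null. The class I genes together had 407 and 403 CPM in WT and 307 and 311 CPM in null. The 3 Tcea genes together had 119 and 119 CPM in WT and 107 and 105 CPM in null. For each family both null totals lay below both WT totals, which describes the values and does not test whether paralogues rose. The mean class I total fell by 95.5 CPM, while *Hdac1* alone fell by 87.0 CPM and *Hdac2* fell by 4.42 CPM. *Hdac1* made up 38.2% of the UMIs of class I genes in WT and 21.8% in null. *Tcea3* made up 21.4% of the UMIs of its family in WT and 9.51% in null. *Stmn1* still held 88.0% of stathmin UMIs in null, against 94.7% in WT. A UMI marks the 3′ end of a transcript whatever its length, so these shares were not divided by length, and differences in capture between genes were not measured.

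The fall of *Stmn1* was seen in each of the 12 tested classes, without overlap of the genotypes. It was deepest in mesenchyme 2, from 1210 and 1244 CPM in WT to 331 and 400 CPM in null (log2 fold change -1.75, SE 0.059). It was shallowest in endothelium and haematoendothelial progenitors, from 861 and 901 CPM to 316 and 381 CPM (log2 fold change -1.35, SE 0.071). The null mean was thus 29.8% to 39.6% of the WT mean, and the log2 fold changes had a standard deviation of 0.12 over the 12 classes. The 3 classes left out of the tests showed the same direction, with *Stmn1* in notochord at 1343 and 1333 CPM in WT and at 411 and 474 CPM in null. In pre-somitic mesoderm the null values rest on 4 and 3 cells, with 35 and 37 UMIs of *Stmn1*.

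*Hdac1* was also lower in all 12 tested classes, again without overlap. The deepest log2 fold change was -1.30 (SE 0.037) in paraxial mesoderm, from 145 and 146 CPM in WT to 59.5 and 61.4 CPM in null. The shallowest was -0.95 (SE 0.12) in erythroid cells, from 83.7 and 86.6 CPM to 47.9 and 44.8 CPM. Their standard deviation over the 12 classes was 0.10. Primordial germ cells, with 15 and 5 cells in the WT libraries and 60 in all, held the highest *Hdac1* level of any class. It was 249 and 282 CPM in WT and 118 and 103 CPM in null.

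**Figure D2:**
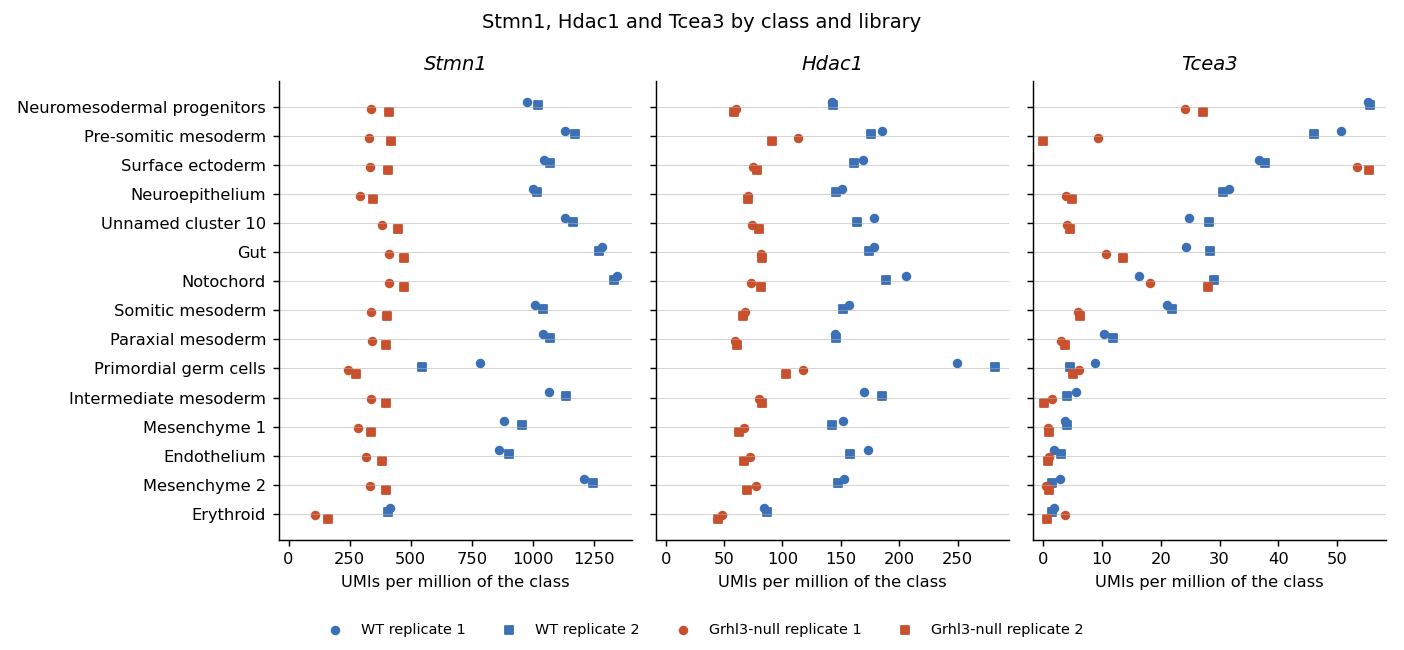
CPM within the class (x axis) for *Stmn1*, *Hdac1* and *Tcea3* in each of 15 classes (y axis, ordered by the WT level of *Tcea3*), 1 point per library. The null points of *Stmn1* and *Hdac1* lie to the left of the WT points in every class, whereas those of *Tcea3* lie to the right in the surface ectoderm class, at 53.4 and 55.4 against 36.8 and 37.7. The null points of pre-somitic mesoderm rest on 4 and 3 cells.

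*Tcea3* behaved differently from class to class. In neuroepithelium it dropped from 31.7 and 30.6 CPM in WT to 3.99 and 4.97 CPM in null, a log2 fold change of -2.83 (SE 0.094), the deepest of the tested classes. In neuromesodermal progenitors, where its WT level was highest, it went from 55.2 and 55.6 CPM to 24.2 and 27.1 CPM (log2 fold change -1.13, SE 0.045). Both null libraries were lower in each, but the null mean was 14.4% of the WT mean in the first class and 46.3% in the second. In somitic mesoderm it went from 21.2 and 22.0 CPM to 5.93 and 6.25 CPM (log2 fold change -1.84, SE 0.076). In gut it went from 24.2 and 28.3 CPM to 10.7 and 13.7 CPM (log2 fold change -1.14, SE 0.11).

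In the surface ectoderm class, the one with the highest WT level of *Grhl3*, *Tcea3* was higher in null. The values were 36.8 and 37.7 CPM in WT and 53.4 and 55.4 CPM in null, a log2 fold change of 0.50 (SE 0.067). Its null values were above its WT values, which occurred in no other tested class that passed the filter. The difference stood in the female cells of the class, at 33.8 and 32.2 CPM in WT and 68.0 and 66.4 CPM in null (log2 fold change 0.96, SE 0.086). In its male cells, of which the WT libraries held 54 and 57, the values overlapped, at 41.2 and 51.0 CPM in WT and 43.2 and 45.2 CPM in null (log2 fold change -0.059, SE 0.12). *Stmn1* and *Hdac1* were lower in the same class in both sexes, at -1.57 and -1.0 on the log2 scale in male cells and -1.53 and -1.30 in female cells.

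In notochord, too small to be tested, *Tcea3* overlapped between the genotypes, at 16.3 and 29.0 CPM in WT and 18.2 and 28.0 CPM in null. *Tcea3* in erythroid cells, at 1.96 and 1.51 CPM in WT and 3.74 and 0.640 CPM in null, did not pass the filter on low counts, so that 11 of the 12 classes gave a fold change. Erythroid cells had the lowest WT level of *Tcea3*, and how much of the low levels is free RNA in the droplets was not tested.

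Whether the genotype difference varied over the 12 classes was tested for every gene at once, with a genotype-by-class term in edgeR (11 and 22 degrees of freedom). The term asks about differences between classes, on top of the mean difference on which the 3 genes had been picked. *Tcea3* passed with an edgeR adjusted p of 2.7e-23, and still did so with the surface ectoderm class left out (edgeR adjusted p = 5.8e-13). *Stmn1* passed with an edgeR adjusted p of 1.2e-09 and *Hdac1* with an edgeR adjusted p of 0.0017. Without *Grhl3*-null replicate 1 *Hdac1* no longer passed (edgeR adjusted p = 0.10). The falls of *Stmn1* and *Hdac1* were present in all tested classes, with standard deviations of the log2 fold changes over classes of 0.12 and 0.10, against 0.90 for *Tcea3*. Of all 14552 genes tested 33.2% passed the same test, as did 6 of the 9 genes described here.

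**Figure D3:**
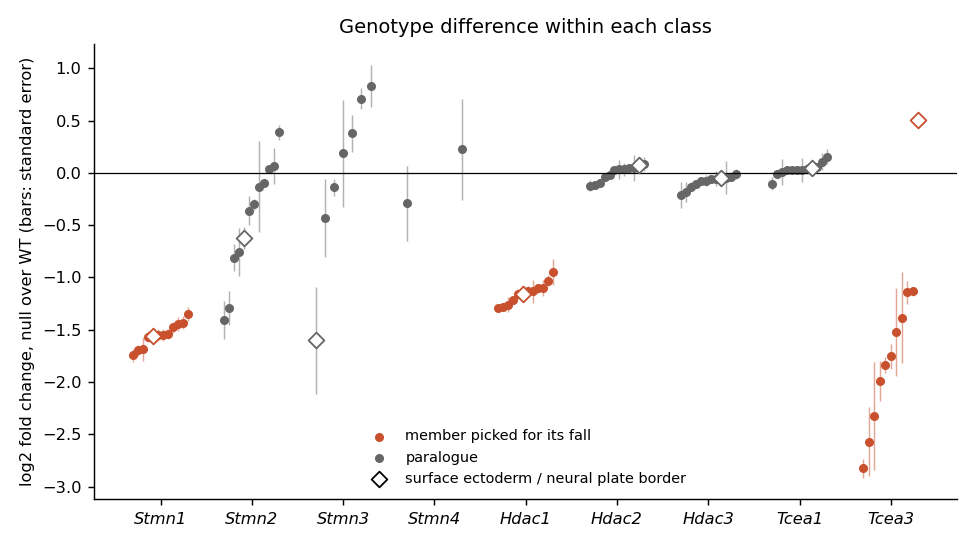
Log2 fold change of null over WT within each tested class (y axis, bars are standard errors) for the 9 genes (x axis), each point a class, with the surface ectoderm class as an open diamond. *Stmn1* spans -1.75 to -1.35, *Hdac1* -1.30 to -0.95 and *Tcea3* -2.83 to 0.50, while *Hdac2*, *Hdac3* and *Tcea1* stay near 0.

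The paralogues were then compared within the classes. Of 72 pairs of a paralogue and a class 57 passed the filter on low counts, and 3 were called higher and 10 lower. Over all genes 6.2% of such pairs were called higher and 7.2% lower. None of the 3 rises reached a log2 fold change of 1. All 3 were in stathmins, 2 of them in *Stmn3* and 1 in *Stmn2*.

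*Stmn3* rose in neuroepithelium, from 7.43 and 6.94 CPM in WT to 11.9 and 12.1 CPM in null (log2 fold change 0.71, SE 0.10, edgeR adjusted p = 0.00017). It also rose in paraxial mesoderm, from 1.56 and 1.29 CPM to 2.68 and 2.53 CPM (log2 fold change 0.83, SE 0.20, edgeR adjusted p = 0.0062). In surface ectoderm it fell, from 1.37 and 0.901 CPM to 0.391 and 0.367 CPM (log2 fold change -1.60, SE 0.51, edgeR adjusted p = 0.042). That fall rests on 18 and 11 UMIs in WT and 5 and 4 in null. The rise in neuroepithelium amounted to a few CPM, beside a drop of *Stmn1* in the same cells from 999 and 1018 CPM to 292 and 344 CPM. The genotype difference of *Stmn3* varied over classes (edgeR adjusted p = 0.00013).

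*Stmn2*, which marks neuromesodermal progenitors, stood there at 143 and 148 CPM in WT and at 132 and 143 CPM in null and did not pass the test (log2 fold change -0.10, SE 0.036, edgeR adjusted p = 0.083). It was called lower in 6 of the 12 classes, and its log2 fold change was below 0 in 9 and above 0 in 3. In endothelium it fell from 23.9 and 31.9 CPM to 12.8 and 10.2 CPM (log2 fold change -1.29, SE 0.16, edgeR adjusted p = 0.0022). In cluster 10 it fell from 55.0 and 65.9 CPM to 18.5 and 26.3 CPM (log2 fold change -1.40, SE 0.18, edgeR adjusted p = 4.1e-07). This unnamed class may mix cell types, and whether its mix differed between genotypes was not tested. Clustering without the 9 genes and chromosome 4 gave a cluster of 400 cells (median 16254.5 UMIs) with markers of mesenchyme 1 and intermediate mesoderm. Another of 122 cells (median 16288.5 UMIs) had markers of neuromesodermal progenitors and neuroepithelium. In WT, *Stmn2* stood at 146 CPM in neuromesodermal progenitors and at 9.87 CPM in mesenchyme 1. *Stmn2* was called higher only in paraxial mesoderm, from 22.4 and 28.0 CPM to 33.8 and 33.1 CPM (log2 fold change 0.39, SE 0.069, edgeR adjusted p = 0.00049). The difference varied over classes (edgeR adjusted p = 3.4e-10).

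*Hdac2* stayed within log2 fold changes of -0.12 and 0.083 in the 12 classes, beside *Hdac1* fold changes of -1.30 to -0.95 in the same classes. It was called higher in none and was called lower in neuroepithelium, at 194 and 191 CPM in WT and 180 and 184 CPM in null (log2 fold change -0.11, SE 0.036, edgeR adjusted p = 0.040), and in paraxial mesoderm (log2 fold change -0.10, SE 0.034, edgeR adjusted p = 0.041). These shifts are small, yet they varied over classes (edgeR adjusted p = 0.011), a call that was lost without either null library (edgeR adjusted p = 0.090 and 0.39) and at a clustering resolution of 0.8 (edgeR adjusted p = 0.077). *Hdac3* lay between -0.21 and -0.010 in the 12 classes and was called lower in 1 of them, neuroepithelium (log2 fold change -0.13, SE 0.041, edgeR adjusted p = 0.033). It did not pass the test of variation over classes (edgeR adjusted p = 0.62).

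*Tcea1* lay between -0.10 in gut and 0.16 in endothelium and was called in no class. In neuroepithelium, where *Tcea3* dropped most, *Tcea1* was at 96.1 and 94.7 CPM in WT and 99.1 and 99.6 CPM in null, a log2 fold change of 0.027 (SE 0.040, edgeR adjusted p = 0.68). Its fold changes did not pass the test of variation over classes (edgeR adjusted p = 0.29). *Stmn4* passed the filter on low counts in 2 classes and was called in neither.

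**Figure D4:**
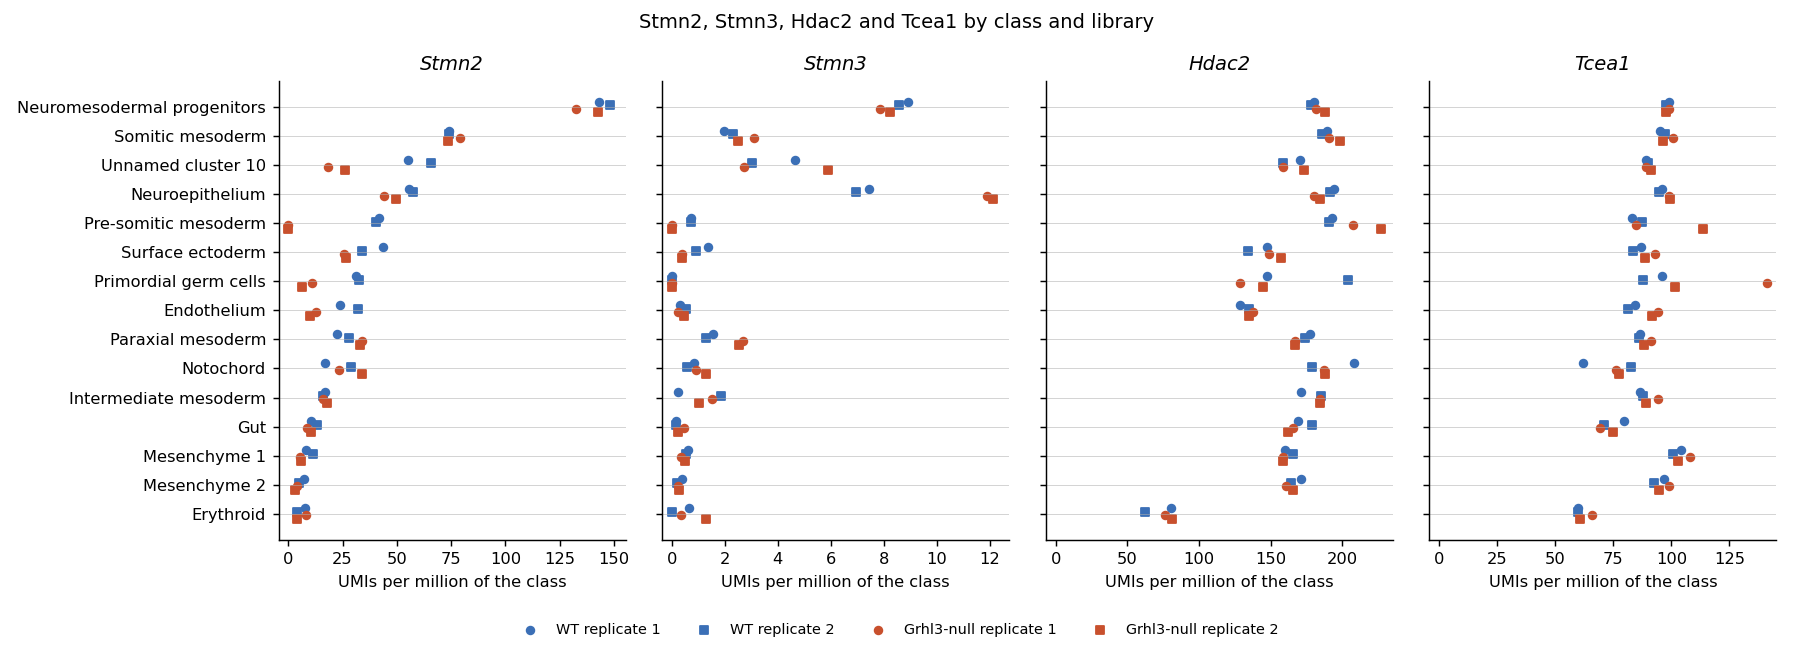
CPM within the class (x axis) for *Stmn2*, *Stmn3*, *Hdac2* and *Tcea1* in each of 15 classes (y axis, ordered by the WT level of *Stmn2*), 1 point per library. The *Stmn3* points of neuroepithelium are higher in null, at 11.9 and 12.1 against 7.43 and 6.94, while WT and null points of *Hdac2* and *Tcea1* lie close in most classes.

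In WT the 3 picked genes had different patterns over the classes. *Stmn1* ranged from 411 ± 7.62 CPM (SD, n = 2) in erythroid cells to 1338 ± 7.41 CPM (SD, n = 2) in notochord, a 3.26-fold range, and 8 of the 14 pairs of neighbours in the order of classes overlapped between libraries. *Hdac1* had a range of 3.12-fold, from erythroid cells to primordial germ cells, with 9 of 14 neighbours overlapping. The top of that range rests on 15 and 5 germ cells in the WT libraries. *Tcea3* had a range of 32.0-fold, from 1.73 ± 0.314 CPM (SD, n = 2) in erythroid cells to 55.4 ± 0.246 CPM (SD, n = 2) in neuromesodermal progenitors. Its first 5 classes in the order were neuromesodermal progenitors, pre-somitic mesoderm, surface ectoderm, neuroepithelium and cluster 10, and none of the first 4 overlapped with the next. *Stmn2* and *Stmn3* were highest in neuromesodermal progenitors, at 146 ± 3.37 and 8.74 ± 0.247 CPM (SD, n = 2), and *Tcea1* varied least, by 1.71-fold. Since the clusters were built from the same cells, no test was made between classes.

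Over the 14 named classes, the WT pattern of *Tcea3* was most like those of *Fgf17* (Pearson r = 0.965), *Sp8* (r = 0.917) and *Fgf8* (r = 0.900), genes of the growth zone at the tail end of the embryo, among 9971 genes compared. *Stmn1* was most like *Lrp6* (r = 0.981), *Zfp358* (r = 0.979) and *Atat1* (r = 0.976), and *Hdac1* most like *Frg1* (r = 0.961), *Mms19* (r = 0.958) and *March7* (r = 0.958). The classes share libraries and differ in depth, and these values only describe the 14 points. For the paralogues the nearest genes were *Foxb1* (r = 0.863), *B230323A14Rik* (r = 0.858) and *Hes5* (r = 0.818) for *Stmn2*, *Tcf3* (r = 0.973), *Gjc1* (r = 0.973) and *Ylpm1* (r = 0.970) for *Hdac2*. For *Hdac3* they were *Zscan21* (r = 0.975), *Smarcc1* (r = 0.961) and *Vangl2* (r = 0.958), and for *Tcea1* they were *Sgo1* (r = 0.956), *Zfp280c* (r = 0.943) and *Nup153* (r = 0.939). *Stmn3* and *Stmn4* did not reach 10 CPM in any WT class.

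The pools differed in their share of male cells, so each gene was also compared within each sex. The log2 fold change of *Stmn1* was -1.49 (SE 0.063) in male cells and -1.61 (SE 0.061) in female cells. It was -1.04 (SE 0.034) and -1.26 (SE 0.026) for *Hdac1*, and -1.44 (SE 0.045) and -1.10 (SE 0.048) for *Tcea3*. The 3 falls were therefore present in both sexes. *Stmn2* was lower in male cells, at 54.4 and 55.1 CPM in WT and 33.2 and 32.6 CPM in null (log2 fold change -0.74, SE 0.029), but overlapped in female cells, at 53.1 and 56.3 CPM in WT and 53.2 and 53.9 CPM in null (log2 fold change -0.053, SE 0.031). *Stmn3* was higher in male null cells (log2 fold change 0.59, SE 0.11) and lower in female null cells (log2 fold change -0.23, SE 0.086). The sex-by-genotype term, fitted after these values had been seen, passed for *Stmn2* (edgeR adjusted p = 1.2e-08) and *Stmn3* (edgeR adjusted p = 0.00026). It also passed for *Stmn1*, *Hdac1* and *Tcea3* (edgeR adjusted p = 0.00028, 3.3e-05 and 0.00083), so the size of their falls differed between male and female cells. *Stmn4*, *Hdac2* and *Tcea1* passed as well, as did 38.5% of all 15608 genes tested. The number of embryos of each sex in a pool is not given, so that sex and embryo cannot be told apart.

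*Stmn1* (chr4:134468320-134473843, plus strand), *Hdac1* (chr4:129516104-129542713, minus strand) and *Tcea3* (chr4:136247729-136274898, plus strand) all lie on chromosome 4 near *Grhl3* (chr4:135541888-135573630, minus strand). Between starts of transcription, *Stmn1* is 1.11 Mb and *Hdac1* 6.03 Mb before *Grhl3* on the chromosome, and *Tcea3* is 0.674 Mb after it. None of the paralogues lies on that chromosome. *Stmn2* is at chr3:8509360-8561606 (plus strand), *Stmn3* at chr2:181306459-181314500 (minus strand) and *Stmn4* at chr14:66344296-66361680 (plus strand). *Hdac2* is at chr10:36974544-37001889 (plus strand), *Hdac3* at chr18:37935844-37955016 (minus strand) and *Tcea1* at chr1:4857814-4897909 (plus strand).

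With *Grhl3* and the 3 picked genes set aside, 37 of 68 genes tested within 2 Mb of the start of *Grhl3* were called (54.4%), 14 higher and 23 lower. Within 10 Mb 109 of 272 were called (40.1%), and within 20 Mb 189 of 531 (35.6%), beside 35.3% of genes on other chromosomes and 42.4% of the genes of chromosome 4 beyond 20 Mb. A called change of 1 or more on the log2 scale was found for 5 of the 68 genes within 2 Mb (7.35%) and for 12 of the 272 within 10 Mb (4.41%), beside 2.26% within 20 Mb, 3.71% on chromosome 4 beyond 20 Mb and 2.14% on other chromosomes. Among them *Trim63*, which encodes a muscle ubiquitin ligase, fell, with 190 and 222 UMIs in WT against 40 and 32 in null (log2 fold change -2.51, SE 0.17, edgeR adjusted p = 6.3e-05). *Sfn*, which encodes 14-3-3 sigma of epithelia and marks the surface ectoderm, fell from 11.5 and 9.43 CPM to 3.78 and 3.87 CPM (log2 fold change -1.48, SE 0.092, edgeR adjusted p = 4.2e-05).

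Close to *Hdac1*, *Dcdc2b* and *Fam167b* fell, with 46 and 41 UMIs in WT against 4 and 3 in null and with 15 and 18 UMIs against 1 and 2 (log2 fold changes -3.58 and -3.35, edgeR adjusted p = 0.00026 and 0.0027). *Htr1d*, a serotonin receptor gene, fell from 27 and 26 UMIs to 15 and 10 (log2 fold change -1.07, edgeR adjusted p = 0.026). In the other direction the long non-coding RNA *Gm17300*, 3.22 Mb before *Grhl3*, rose from 31 and 30 UMIs in WT to 844 and 847 in null (log2 fold change 4.80, SE 0.11, edgeR adjusted p = 4.6e-07). *Slc30a2*, a zinc transporter gene, rose from 49 and 48 UMIs to 133 and 128 (log2 fold change 1.43, SE 0.14, edgeR adjusted p = 0.00036). *4930455G09Rik*, *Tmem200b* and *Col8a2* rose by 1.34, 1.31 and 1.27 on the log2 scale from at most 12 UMIs in a WT library (edgeR adjusted p = 0.0072, 0.042 and 0.026). All null cells are homozygous for the disrupted *Grhl3* locus, so the lack of *Grhl3* and a place near its locus cannot be told apart as the base of these differences.

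**Figure D5:**
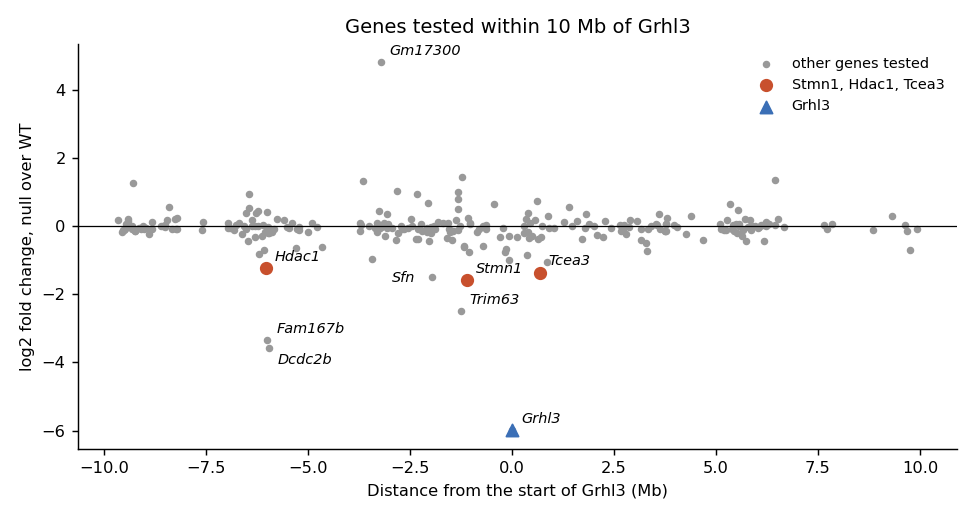
Log2 fold change of null over WT over all filtered cells (y axis) against the distance from the start of *Grhl3* in Mb (x axis) for genes tested within 10 Mb, with *Stmn1*, *Hdac1* and *Tcea3* in orange-red and *Grhl3* as a triangle. Most genes lie near 0, *Gm17300* is the highest at 4.80, and *Dcdc2b*, *Fam167b* and *Trim63* lie below the 3 picked genes.

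Other genes of the same pathways were described as lists. The 3 picked genes were chosen for their falls, so smaller changes in other genes say little about the pathways. Of all genes tested only 2.21% were called with a log2 fold change of 1 or more in size. Of 12 tubulin genes 1 rose and 7 fell, so that 66.7% were called, beside 35.5% of all genes tested. Their median log2 fold change was -0.19, beside a median of 0.0026 over all genes tested. *Tuba1a*, the alpha tubulin of developing neurons, fell most, from 502 and 483 CPM in WT to 350 and 334 CPM in null (log2 fold change -0.56, SE 0.034, edgeR adjusted p = 3.8e-05). *Tubg1*, the gamma tubulin of centrosomes, and *Tubb2b* fell by 0.25 and 0.24 on the log2 scale (edgeR adjusted p = 0.00017 and 0.00040). Of 25 other microtubule regulators 3 rose and 7 fell, a share of 40.0% that is near the 35.5% of all genes, and their median was -0.025. *Mapt*, which encodes tau, changed by -0.52 and *Map2* by 0.33 on the log2 scale, and *Kif2a*, a depolymerising kinesin, by -0.20 (edgeR adjusted p = 0.00061, 0.0059 and 0.029).

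Among the 33 tested subunits of complexes that hold HDAC1 and HDAC2, 5 rose and 12 fell, and the median was -0.035. None changed by a log2 fold change of 1, beside 2.21% of all genes tested that were called with such a change. The share called was 51.5%, beside 35.5% of all genes. For the subunits of the HDAC3 complex and the deacetylases of other classes it was 33.3% and 28.6%, not above that of all genes. *Mbd2*, a methyl-CpG binding subunit, changed by 0.31, *Brms1* by -0.21 and *Sap30l* by -0.20 on the log2 scale (edgeR adjusted p = 0.00046, 0.00026 and 0.0017). Of the 6 subunits of the HDAC3 complex 2 rose, among them *Tbl1xr1* by 0.17 on the log2 scale (edgeR adjusted p = 0.00081). Of the 7 deacetylases of other classes *Hdac9* rose, from 0.494 and 0.535 CPM to 0.836 and 0.782 CPM (log2 fold change 0.62, SE 0.12, edgeR adjusted p = 0.0058), and *Hdac11* fell by 0.27 on the log2 scale (edgeR adjusted p = 0.0037).

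Of 31 elongation factors 3 rose and 10 fell, with a median of -0.017. The shares called, 41.9% here and 38.5% of the RNA polymerase II subunits, were near the 35.5% of all genes. *Tceanc2*, a TFIIS N-terminal domain gene that lies on chromosome 4, 28.4 Mb from *Grhl3*, fell from 13.7 and 13.5 CPM to 7.62 and 7.29 CPM (log2 fold change -0.90, SE 0.036, edgeR adjusted p = 6.7e-06). *Leo1* and *Mllt3* changed by -0.26 and -0.17 (edgeR adjusted p = 0.0010 and 0.0017). Of 13 subunits of RNA polymerase II 2 rose and 3 fell, led by *Polr2l* at 0.20, *Polr2g* at -0.17 and *Polr2c* at -0.13 on the log2 scale (edgeR adjusted p = 0.00071, 0.00097 and 0.0026).

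Because *Stmn1* is a gene of dividing cells, cell cycle genes were counted as well. Of 14 S phase genes 3 rose and 4 fell, with a median of -0.022, and of 18 G2 and M phase genes none rose and 4 fell, with a median of -0.038. The shares called were 50.0% and 22.2%, above and below the 35.5% of all genes. The largest of these changes were *Tyms* at -0.23, *Ccne2* at 0.11 and *Pcna* at 0.088, and *Ube2c* at -0.12, *Ccnb2* at -0.098 and *Bub1* at -0.079 on the log2 scale (edgeR adjusted p = 0.00040, 0.015, 0.035, 0.0042, 0.015 and 0.048). No gene of the 2 lists changed by a log2 fold change of 1, beside 2.21% of all genes tested that were called with such a change.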

How the data were processed

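ScRNA-seq counts of 2 WT and 2 *Grhl3*-null libraries were analysed, grouped by their titles. Cell Ranger, run by the authors against mm10, produced the deposited files, which hold UMI counts (whole numbers) per gene for each droplet taken as a cell. The authors' cell filters had not been applied to them. The genes and the gene lists were chosen with earlier results of these data known.

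Cells needed at least 3000 genes, 7500 UMIs and at most 7% mitochondrial UMIs, as in the study. Seurat 5.3.0 and sctransform 0.4.2 (R 4.3.3) gave clusters from 3000 variable features, 30 principal components, 20 neighbours and a resolution of 0.4. A cluster took the name of the type with the most of the study's 15 markers among its 30 leading genes (5 CPM added to both sides). It needed 3 or more of them, more than 1.5 times as many as any other type had, and no type ahead of it in the first 10 genes. Doublet calling marked 0 to 0.0627% of cells, under 0.5%, so the top 5% of scores in each library were removed in an alternative only. A cell was male with 2 or more UMIs summed over 4 Y-linked genes and no more than 2 of *Xist*, and female with 3 or more UMIs of *Xist* and no more than 1 from the Y.

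UMIs were summed per library, or per class and library, and tested across all genes with edgeR 4.0.16 (TMM, filterByExpr, quasi-likelihood test, Benjamini-Hochberg adjustment), with a call at an adjusted p under 0.05. Variation over classes was tested by all genotype-by-class terms at once, with library and class in the model. DESeq2 1.42.0 was an alternative. CPM values were not scaled by TMM, and fold changes were. Both tests were checked on simulated data. Named genes were the 9 members, *Grhl3*, *Hdac8* and *Tcea2*, the called genes with the largest fold change in each of 12 lists (at most 3), the 5 largest rises and falls among called genes within 10 Mb of *Grhl3*, and for each member reaching 10 CPM the 3 genes most like it, on log2 (CPM + 1). The result of 1 gene that this rule names is not reported here. Positions and transcripts came from GENCODE for GRCm38, and alignments were made with Biopython 1.88. The 2 libraries of a genotype are reactions on 1 pool of cells, so the tests measure the spread between reactions and not between embryos. Their counts differed beyond sampling (chi-square divided by its degrees of freedom, 8.84 in WT and 15.6 in null), so neither is a copy of the other.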

Additional observations from a re-analysis of the deposited data

Results flagged for a closer look

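The genotype difference varied over the 12 tested classes by the genotype-by-class term of edgeR for 6 of the 9 genes, with adjusted p-values of 2.7e-23 for *Tcea3*, 3.4e-10 for *Stmn2*, 1.2e-09 for *Stmn1*, 0.00013 for *Stmn3*, 0.0017 for *Hdac1* and 0.011 for *Hdac2*, beside 33.2% of all 14552 genes tested that passed. The class differences of *Tcea3* spanned the widest range, from -2.83 in neuroepithelium to 0.50 in surface ectoderm on the log2 scale.

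The genotype difference also varied between male and female cells for 8 of the 9 genes, by a sex-by-genotype term with 2 residual degrees of freedom that was added after the values were seen. The edgeR adjusted p-values were 1.2e-08 for *Stmn2*, 3.3e-05 for *Hdac1*, 0.00026 for *Stmn3*, 0.00028 for *Stmn1*, 0.00083 for *Tcea3*, 0.0014 for *Stmn4*, 0.0021 for *Hdac2* and 0.016 for *Tcea1*, beside 38.5% of all 15608 genes tested that passed. The difference in log2 fold change, male less female cells, was -0.69 for *Stmn2*, 0.21 for *Hdac1*, 0.82 for *Stmn3*, 0.11 for *Stmn1*, -0.34 for *Tcea3*, 0.12 for *Hdac2* and -0.092 for *Tcea1*. For *Stmn4* it was 2.89, on 3 to 29 UMIs per library and sex.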

How the results depend on the processing

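The falls of *Stmn1*, *Hdac1* and *Tcea3* over all cells kept their direction under all 17 other settings, with log2 fold changes of -1.70 to -1.46, -1.26 to -1.04 and -1.64 to -1.10. The variation of *Stmn1* and *Tcea3* over classes kept its call under all 14 other settings of that test. The log2 fold changes of *Stmn2*, from -0.74 to -0.053, and *Hdac3*, from -0.13 to -0.042, also stayed below 0.

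DESeq2 called 3995 genes (6097 with edgeR), 199 of at least 1 in log2 size (380 with edgeR) and 2 paralogues (4 with edgeR), with 0 higher (1 with edgeR). Thinning each cell to 7500 UMIs left 3572 calls, 2 paralogues and 0 higher, and 71 of the genes within 10 Mb of *Grhl3* (109 without thinning). Male cells alone gave 590 calls of at least 1, 2 paralogues higher and 1 lower, and 3 calls of paralogues within classes (13 with all cells). Female cells alone gave 590 calls of at least 1 and 0 paralogues higher. A resolution of 0.8 gave 7 calls within classes. Without the pre-somitic class, a setting added after the data were seen, 2 paralogues were called and 0 higher. The cause of these shifts was not tested. The thinned set holds fewer UMIs and the 1-sex sets fewer cells, and the effect of either was not tested apart.

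Leaving out 1 library, with the lone library assumed to vary like those of the other genotype, gave 4554 to 5601 calls, 305 to 392 of at least 1, 2 to 3 paralogues, 0 to 1 higher and 2 to 2 lower, 81 to 105 genes near *Grhl3* and 8 to 11 calls within classes, the fewest without *Grhl3*-null replicate 1. The log2 fold change without 1 library ran up to 0.40 for *Stmn4*, up to 0.037 for *Tcea1* and down to -0.022 for *Hdac8*. The adjusted p of *Hdac1* over classes was 0.0087 to 0.10 by edgeR, highest without *Grhl3*-null replicate 1.

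The call of *Stmn2* was lost in female cells (edgeR adjusted p = 0.21) and that of *Hdac3* in male cells (edgeR adjusted p = 0.32). The following log2 fold changes turned direction. *Stmn3* was at -0.23 in female cells and -0.010 with classes weighted equally. *Stmn4* was at -0.12 without *Grhl3*-null replicate 2, -1.23 in female cells and -0.034 with equal weights. *Hdac2* was at 0.017 in male cells. *Tcea1* was at -0.015 without *Grhl3*-null replicate 1, -0.00052 with no filter on cells, -0.043 in male cells and -0.0024 after thinning. *Hdac8* was at 0.024 when scaled by total UMIs only, 0.010 without WT replicate 1, 0.033 at a mitochondrial limit of 5% and 0.10 in female cells. *Tcea2* was at -0.044 in female cells, and *Tcea3* in male surface ectoderm cells at -0.059. With classes weighted equally there is no count of calls.

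The labels do not say whether same-numbered WT and null libraries shared a batch. Same-numbered libraries had deviations correlated at 0.23 over 7772 genes. With the replicate number as a block edgeR called 7048 genes, 393 of them of at least 1, 4 paralogues, 126 genes near *Grhl3* and 15 paralogue calls within classes, and the block changed no call of *Stmn1* (adjusted p = 6.2e-08), *Hdac1* (0.0013) or *Tcea3* (1.8e-20) over classes.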
